A study of Rattus norvegicus with 20 samples.

Results

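The miRNA cluster of mir-322, mir-503, mir-351, mir-542 and mir-450a was followed through 15 tissues and the serum of young rats. Its members were taken by name, as every miRBase precursor of these names, with any copy number, together with their mature arms. They comprised 10 of the 444 precursors, 10 of the 577 mature miRNAs and 5 of the 388 RefSeq miRNAs listed for each library. The cluster was chosen by its RPM levels over the 15 tissues and serum in these same libraries, so the levels are described here and not tested.

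The libraries came from untreated male Long Evans (Hooded) rats at postnatal day 35 and were made from small RNA. Of the 20 libraries, 3 were brain hemispheres of single rats and 3 were serum. The other 14 were pools, each holding miRNA of 3 rats from 1 tissue (fat, heart, kidney, large intestine, liver, lung, muscle, pancreas, skin, small intestine, spleen, stomach, testes or thymus). The brain and serum values are given as mean ± SD (n = 3), whereas each pool is a single library and has no replicate. Levels are RPM, the reads of a miRNA scaled to 1000000 of all reads counted on the same list, precursor or mature. Depth was 388275 to 1204552 precursor reads for brain, 162080 to 3685761 for the pools, and only 7556 to 10862 for serum. A count of 3 reads, taken as the floor, was therefore worth 0.814 to 18.5 RPM in the pools and 276 to 397 RPM in serum. Intervals are 95% Wilson intervals and, like the floors, cover counting error only. Replicates scattered more widely than that. Chi-square per degree of freedom over the precursors was 17.98 to 58.4 between hemispheres and 6.53 to 23.07 between serum libraries. For mir-351 the intervals of hemispheres 1 (943–1056 RPM) and 3 (1126–1346 RPM) did not overlap, whereas those of the other members did. Pools that do not overlap are therefore apart beyond counting error only, and a difference between tissues was not tested.

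The library labelled pancreas carried little of the defining pancreatic miRNAs. The hepatocyte marker mir-122 reached 14862 RPM in it and 14726 RPM in liver, whereas mir-216a and mir-217 were at 0. mir-216b was at 4.96 RPM, its highest level in any tissue but under the floor of 14.9 RPM in that library. mir-375, which also marks gut endocrine cells, was at 496 RPM against 18328 RPM in large intestine. It is called the library labelled pancreas throughout, and results that rest on it are also given without it. Other marker miRNAs were highest where the labels place them, with mir-1, mir-133a, mir-133b and mir-206 highest in muscle, mir-208a, mir-208b and mir-499 in heart, mir-124, mir-9a and mir-128 in brain, and mir-203 and mir-205 in skin.

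A miRNA gene is transcribed into a hairpin, from which Dicer cuts a duplex with a 5p and a 3p arm, and one arm usually stays in the silencing complex while the other is lost. The retained arm finds its target messages mainly through its seed, bases 2 to 8 from the 5′ end, so that arms with the same seed share many targets. The cluster lies on the X chromosome, and mir-322 and mir-503 are known for slowing the cell cycle and for their induction when muscle precursors differentiate. In the GRCr8 gene table of RefSeq the order is Hprt1, Mir450a1, Mir450b-1, Mir542, a long noncoding RNA (LOC102550366), Mir351, Mir503, Mir322 and Plac1.

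The mature sequences show what the members can share. All 10 member arms had a sequence in the RefSeq table for GRCr8, as did 534 of the 577 listed mature miRNAs. The arm that held most reads of each hairpin is given first, 5′ to 3′, with the seed in capitals.
miR-322-5p: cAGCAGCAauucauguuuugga
miR-503-3p: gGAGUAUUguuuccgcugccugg
miR-351-5p: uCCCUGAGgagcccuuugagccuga
miR-542-3p: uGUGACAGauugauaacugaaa
miR-450a-5p: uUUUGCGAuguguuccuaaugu
No seed was common to any pair of these arms. The minor arm of mir-503 is shown because its start resembles that of miR-322-5p, although the last base of the seed differs.
miR-503-5p: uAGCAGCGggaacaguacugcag

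Of these seeds, 3 recur elsewhere in the listed miRNAs. The seed AGCAGCA of miR-322-5p is that of the mir-15 and mir-16 family, a group known for holding back cyclins, and 4 other listed arms carry it.
miR-15b-5p: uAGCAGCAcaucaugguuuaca
miR-16-5p: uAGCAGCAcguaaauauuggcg
miR-195-5p: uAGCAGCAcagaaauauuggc
miR-497-5p: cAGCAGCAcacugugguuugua
The seed CCCUGAG of miR-351-5p is that of miR-125, the vertebrate relative of the worm lin-4 RNA, and the first 8 bases of miR-351-5p, miR-125a-5p and miR-125b-5p are identical.
miR-125a-5p: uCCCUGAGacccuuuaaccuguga
miR-125b-5p: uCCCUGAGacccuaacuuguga
The seed UUUGCGA of miR-450a-5p is also that of its neighbour, with which it shares the first 20 bases.
miR-450b-5p: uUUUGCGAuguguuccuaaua

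Summed over the 5 hairpins on the precursor list, the cluster was highest in lung, at 11321 RPM (11188–11456), and then in muscle at 9874 RPM. Fat at 7525, skin at 7118, heart at 6868 and testes at 6830 RPM followed. Kidney came next at 2421 RPM, 2.82-fold below testes, and this was the widest gap in the order. Brain held 1834 ± 118 RPM, and its 3 hemispheres held 1709, 1849 and 1945 RPM. Liver held 1762, the library labelled pancreas 1462, spleen 1443, thymus 712, stomach 659, large intestine 533 and small intestine 395 RPM (342–456). The intervals of neighbours overlapped for fat with skin, skin with heart and heart with testes, again from brain through liver and the library labelled pancreas to spleen, and for thymus with stomach. Lung exceeded the median tissue, which was brain, 6.17-fold, and the range from lowest to highest tissue was 28.7-fold. In lung, 1.13% of all precursor reads came from the cluster, against 0.0395% in small intestine. On the mature list muscle was highest instead, at 11217 RPM (10991–11447), with lung at 9338 RPM (9205–9472). Each tissue is a mixture of cells, so fewer cells of a type and less of a miRNA per cell cannot be told apart in these levels.

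**Figure D1:**
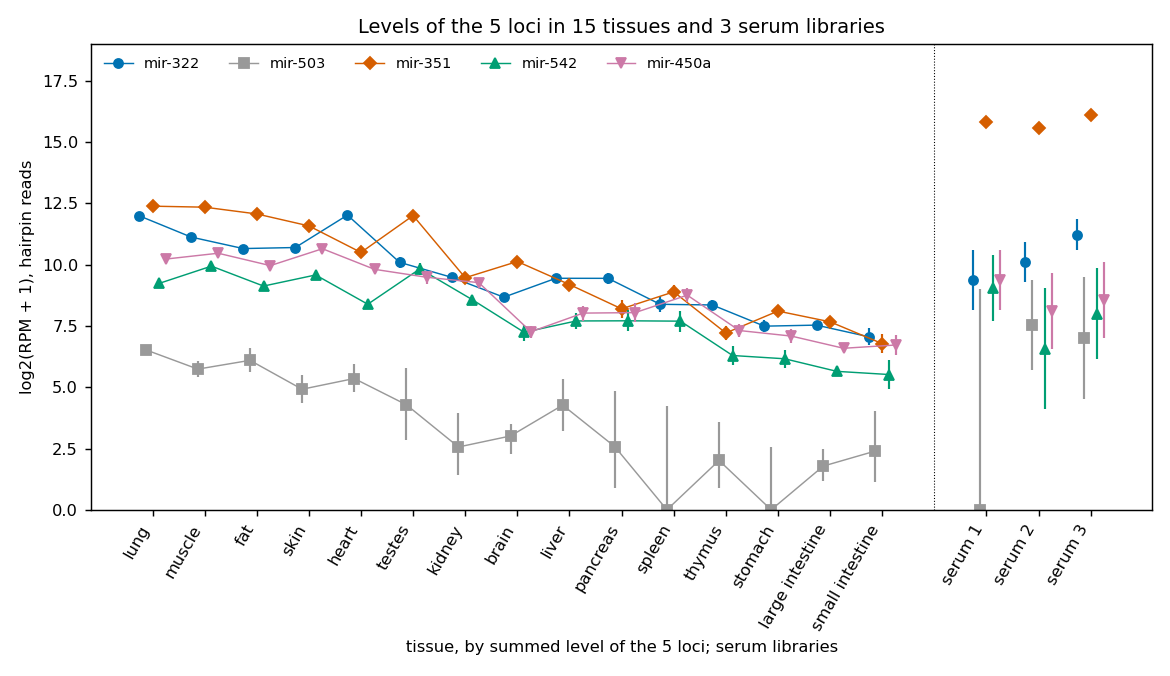
Level of each hairpin, as log2(RPM + 1) with copies summed, in 15 tissues ordered by the summed level and in the 3 serum libraries; bars are 95% counting intervals, or ± 1 SD over 3 hemispheres for brain, and the lines between tissues only guide the eye. mir-351 is the highest of the 5 in lung, muscle, fat, skin and testes but not in heart, mir-503 lies far below the rest, and in serum mir-351 stands apart at 49254 to 69735 RPM.

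mir-322, which carries the mir-16 seed, was highest in heart (4155 RPM, 3992–4324) and lung (4083 RPM, 4003–4164), whose intervals overlapped. Muscle followed at 2232, skin at 1660, fat at 1612 and testes at 1092 RPM. Kidney (715), liver (695) and the library labelled pancreas (694 RPM) overlapped one another. Brain held 407 ± 28.6 RPM, with 436, 407 and 379 RPM in its hemispheres. Spleen (333) and thymus (326) overlapped, as did large intestine (184) and stomach (179), and small intestine was lowest at 132 RPM (103–170), overlapping stomach. In all, 8 of the 14 pairs of neighbouring tissues overlapped. Heart was 5.98-fold above the median tissue.

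mir-351, which carries the miR-125 seed, was highest in lung (5346 RPM, 5254–5439) and muscle (5197 RPM, 5073–5324). Fat (4293) and testes (4097) overlapped, and skin followed at 3060 RPM. Heart, where mir-322 peaked, held 1444 RPM of mir-351 (1350–1546). Brain ranked 7 of 15 at 1117 ± 117 RPM, with hemispheres at 998, 1123 and 1231 RPM. The remaining tissues ran from kidney (706) and liver (582) through spleen (473), the library labelled pancreas (292), stomach (275), large intestine (202) and thymus (147) to small intestine at 109 RPM. Overlap was found in 6 of the 14 neighbouring pairs, among them kidney with liver and thymus with small intestine. On the mature list muscle led at 7930 RPM, followed by testes (6719), fat (6546) and lung (6384 RPM).

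mir-450a, a single precursor, was highest in skin (1604 RPM, 1517–1697), then muscle (1412), lung (1199), fat (995), heart (896), testes (716) and kidney (615), with fat, heart, testes and kidney overlapping from one to the next. Brain was among its lowest tissues, at 153 ± 26.1 RPM, and overlapped thymus (158) and stomach (135). mir-542, which lies near it, was highest in muscle (980 RPM, 927–1037) and testes (907 RPM, 772–1066), which overlapped, and then in skin (764, overlapping testes), lung (602) and fat (558, overlapping lung). Kidney (381) and heart (333 RPM) overlapped. Brain held 150 ± 32.7 RPM of mir-542, and small intestine was lowest at 44.8 RPM.

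mir-503 was the rarest member, with 409 reads in all 20 libraries. Lung held 91.1 RPM (79.8–104.1), fat 67.4, muscle 52.4, heart 39.9, skin 29.2, testes 18.5 and liver 18.3 RPM. Brain held 7.07 ± 3.23 RPM from 18 reads in 3 hemispheres. No read was counted in spleen or stomach. In the order of its levels each of the 14 pairs of neighbouring tissues had overlapping intervals, so the rank of one tissue beside the next could not be read at this depth.

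The same tissues were high for most members. For mir-322, mir-503, mir-351 and mir-450a the lowest of lung, muscle, fat, skin, heart and testes was above the highest of the other 9 tissues, and for mir-542 kidney was above heart. With mir-503 the margin was 18.5 RPM in testes against 18.3 RPM in liver. With libraries scaled by TMM or by DESeq2 size factors, which shifted the median precursor of a tissue by up to 1.18 and 1.62 on the log2 scale, the separation remained for mir-351 and for the summed cluster and was lost for mir-322, mir-503 and mir-450a. It was also lost for mir-322 on the mature list and for mir-503 on the RefSeq list. The loss for mir-322 rested on the library labelled pancreas, at 501 RPM against 499.6 RPM in fat. Without that library it remained separated on the mature list, with liver next at 373 RPM. The lowest tissue changed with scaling too. For mir-542 and mir-450a it was brain under TMM and under DESeq2 size factors. For mir-322 it was spleen under TMM and brain under DESeq2 size factors. For mir-351 and the summed cluster it was thymus under TMM and stayed small intestine under DESeq2 size factors. Of the 10 member precursors, 8 were at least 4-fold higher in their highest tissue than in their median tissue, with mir-450a and mir-542-1 the exceptions. Of all 295 precursors with at least 10 reads in at least 3 libraries, 75.3% were past the same fold, so a peak of that size was common among rat miRNAs.

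Whether the members moved together was asked over the 15 tissues, with brain as 1 value and serum left out. Pearson's r of the log2 levels was lowest for mir-503 with mir-542 (0.73) and highest for mir-542 with mir-450a (0.95), which are separated in the gene order only by mir-450b. mir-351 with mir-542 gave 0.93, mir-322 with mir-450a 0.90, mir-351 with mir-450a 0.88, mir-322 with mir-503 0.87 and mir-322 with mir-351 0.85. The median over the 10 pairs was 0.86, and the median of the rank correlations 0.88. Over all 43365 pairs of the 295 precursors the median r was 0.16, and 1.30% of those pairs were at or above the median of the cluster. All values of a tissue come from 1 library and share its total, and the 15 tissues are not replicates of one another. Pairs with mir-503 rest on its few reads and moved with the pseudocount. With 0.1 RPM in place of 1 RPM, r was 0.64 for mir-503 with mir-542 and 0.62 for mir-503 with mir-450a. With 10 RPM these were 0.75 and 0.80.

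Much of this likeness lay between the 6 tissues above the gap and the 9 below it. Within the 9 lower tissues the median r over the 10 pairs was 0.62, from 0.04 for mir-503 with mir-450a to 0.93 for mir-542 with mir-450a. In these tissues mir-503 had 9 reads or fewer in each pool, so the r of its pairs there rests on few reads. Within the 6 higher tissues the median was 0.26 and 3 of the 10 pairs were negative, down to −0.65 for mir-322 with mir-542. The pair of mir-351 and mir-542 was the highest there, at 0.74. The medians over all pairs of the 295 precursors were 0.22 in the 9 tissues and −0.01 in the 6. The tissues were divided here after their levels had been seen, at a gap in the sum of these same hairpins. Such a split narrows the range of the levels and can by itself lower r, so these values are descriptions.

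The makeup of the cluster differed between heart and testes. On the precursor list, in heart mir-322 made up 60.5% (59.0–62.0) of the cluster's reads and mir-351 21.03% (19.8–22.3), whereas in testes mir-322 made up 16.0% (13.9–18.3) and mir-351 59.98% (57.1–62.8). The ratio of mir-322 to mir-351 on that list was 2.88 (2.66–3.11) in heart and 0.267 in testes, with a median of 0.764 over the tissues. It exceeded 1 beyond counting error in heart, the library labelled pancreas (2.37) and thymus (2.22), whereas the intervals of small intestine (1.22), liver (1.19) and kidney (1.01) included 1. On the mature list, where few mir-322 hairpin reads were counted, heart held 35.8% (33.8–37.9) mir-322 and 37.9% (35.9–40.01) mir-351, and its ratio was 0.944 (0.856–1.04). Testes held 6.90% mir-322 and 76.8% mir-351 there, with a ratio of 0.0898. The ratio in heart ranked 2 of 15 on that list, under the library labelled pancreas (1.07, 0.750–1.52). It was below 1 in the other 14 tissues, although the intervals of heart and thymus (0.8125, 0.603–1.09) included 1. In heart mir-322 thus led on the precursor list, whereas neither led beyond counting error on the mature list. In brain mir-351 made up 60.8 ± 2.47% of the precursor reads and the ratio was 0.369 ± 0.065. Without heart the median correlation between the hairpins was 0.89, and without the library labelled pancreas it was 0.87.

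**Figure D2:**
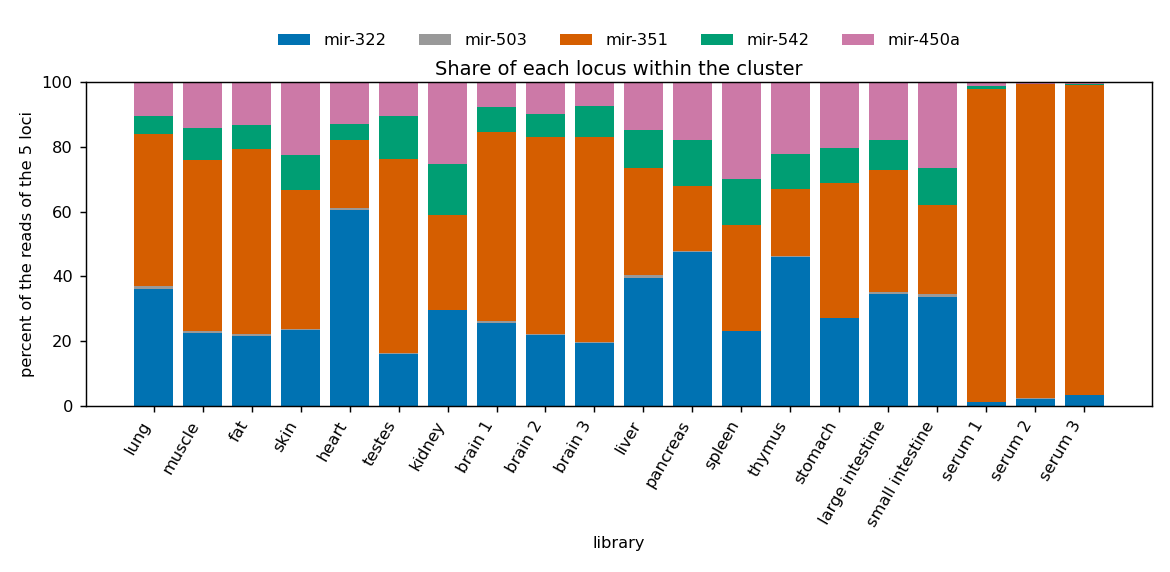
Percent of the cluster's precursor reads held by each hairpin in the 14 pools, the 3 hemispheres and the 3 serum libraries, ordered by the summed level in tissues. mir-322 reaches 60.5% in heart (35.8% on the mature list), mir-351 reaches 59.98% in testes, and mir-351 holds 95.7 to 96.9% in serum.

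The precursors outside the cluster whose tissue pattern was most like its sum were mir-450b-1 (r = 0.90) and mir-450b-2 (0.87). Neither was among the members. The gene order places Mir450b-1 inside the same stretch of the X chromosome and does not name the second copy. Next in likeness came mir-195 (0.84), mir-30d (0.83) and mir-497 (0.81). mir-195 and mir-497 carry the seed of miR-322-5p. At the other end stood the intestinal and hepatic mir-194-1, mir-194-2 and mir-192 (r = −0.68, −0.68 and −0.67), which made up much of the reads of small intestine, where mir-192 alone held 324177 RPM. Over all 285 other precursors tested the median r was 0.20. The summed level of mir-192 and mir-194 was 350309 RPM in small intestine, 236256 RPM in the library labelled pancreas, 233192 RPM in liver and 208641 RPM in large intestine, and its part in the low cluster levels there was not tested. The smooth muscle mir-143 and mir-145 summed to 613588 RPM in stomach and 318244 RPM in large intestine, but also to 167344 RPM in heart. For mir-181a and mir-181b the sum was 298521 RPM in thymus, but also 217144 RPM in brain and 120082 RPM in lung. The part of these was not tested either.

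The mir-450b copies ran from 4.27 to 6.403 RPM in small intestine up to 115 to 117 RPM in muscle. Each was nearest to mir-450a, with r of 0.98 for the first copy and 0.95 for the second. Among arms with the seed UUUGCGA, miR-450a-5p held between 88.1% (the library labelled pancreas, 77.5–94.1, with thymus next at 90.2%) and 95.9 ± 4.85% (brain) of the reads, so its neighbour was the minor member in all 15 tissues. The 2 arms agree over 20 bases, and short reads could be assigned to either.

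The reads fell on the arms unevenly. Over the 17 tissue libraries, miR-322-5p had 5493 reads and miR-322-3p 90, so that the 5p arm held 98.4%. miR-351-5p had 29261 reads against 1 for the 3p arm, and miR-450a-5p had 8198 against 5. For the other members the 3p arm led. miR-503-3p had 267 reads and miR-503-5p, the arm that begins like miR-16-5p, had 14. miR-542-3p had 1063 reads and miR-542-5p 399, and the 5p share differed between libraries, with 0 reads against 21 for the 3p arm in liver and 160 against 295 in lung.

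Not all hairpin reads lay on an annotated arm. Of the hairpin reads of mir-351 in tissues 99.4% were counted on an arm, and of those of mir-450a 96.4%. For mir-322 the figure was 27.8%, between 20.2% in fat and 45.2% in small intestine, and for mir-542 it was 30.1%, between 17.01% in testes and 38.1% in the library labelled pancreas (37.5% in stomach, the next highest). mir-503 was between them at 69.2%. Over all miRNAs, a tissue library's mature total was 60.3 to 87.8% of its precursor total. The hairpins of mir-322 and mir-351 are shown to let the reads be placed, with both annotated arms in capitals.
mir-322: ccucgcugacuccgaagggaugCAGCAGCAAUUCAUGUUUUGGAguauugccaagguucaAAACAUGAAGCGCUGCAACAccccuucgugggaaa
mir-351: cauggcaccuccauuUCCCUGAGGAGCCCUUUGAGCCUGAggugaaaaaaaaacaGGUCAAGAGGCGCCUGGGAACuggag
Of the 95 bases of the mir-322 hairpin 42 belong to an arm, and of the 81 bases of mir-351 46 do. Where the remaining mir-322 and mir-542 reads lay could not be seen, since the lists hold 1 count per hairpin and arm. Levels of mir-322 on the mature list were accordingly lower, with miR-322-5p at 1761 RPM in heart, 1253 RPM in lung and 177 ± 30.1 RPM in brain.

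**Figure D3:**
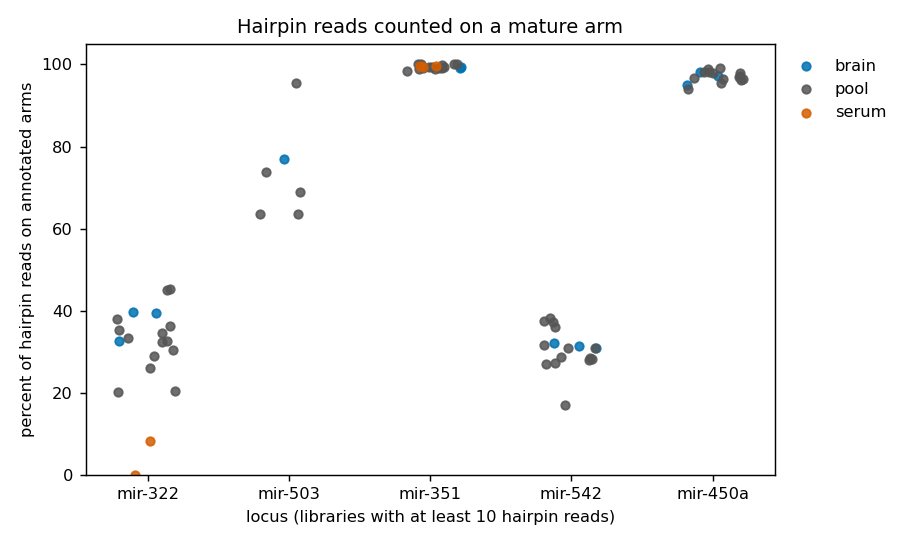
Percent of a hairpin's reads that were counted on its annotated 5p or 3p arm, 1 point per library with at least 10 hairpin reads, spread sideways for legibility; colours mark brain, pools and serum. mir-351 and mir-450a lie above 94%, mir-322 and mir-542 in tissues lie between 17.01 and 45.2%, and the serum points of mir-322 are at 0 and 8.33%.

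The precursor list names 2 copies each of mir-322, mir-503 and mir-351 and 3 of mir-542, whereas the GRCr8 table holds 1 gene of each. The reads were divided almost evenly between copies, with 49.8% of mir-322 reads on its first copy, 50.02% for mir-351, 54.0% for mir-503 and 33.4% for mir-542. The RefSeq count equalled the sum of the copies in all 20 libraries for each of them. Levels, correlations and shares were therefore taken over summed copies, whereas counts of member precursors past a criterion list each copy, so that a hairpin with several copies enters more than once.

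Serum differed from every tissue in a single member. mir-351 was at 57041, 49254 and 69735 RPM in the 3 serum libraries (58677 ± 10338), from 431, 535 and 553 reads. The highest tissue was lung at 5346 RPM and the hemispheres held 998, 1123 and 1231 RPM, so no serum library overlapped any tissue. The serum mean was 52.5-fold above brain and 11.0-fold above lung, and the lowest serum library was 9.21-fold above lung. Its 2 precursor copies were the only members above all 17 tissue libraries in all 3 serum libraries, as were 8.14% of all 295 precursors. By the log2 excess of serum over the highest tissue, mir-140 (4.23) and mir-7a-2 (3.58) stood above mir-351-2 (3.47) and mir-351-1 (3.44), although the serum levels of mir-7a-2 were 397, 276 and 126 RPM, at or below the floor of 3 reads.

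On the mature list miR-351-5p took 8.82 ± 1.25% of all serum reads. By abundance it ranked 3, 4 and 3 among the mature miRNAs of the serum libraries, whereas in tissues it ranked between 21 (muscle) and 83 (small intestine and thymus). Of the 1519 hairpin reads in serum 1511 lay on an arm, 1510 of them on the 5p arm.

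The other members were present in serum at a few reads. mir-322 was at 662, 1105 and 2396 RPM, from 5, 12 and 19 reads, above the 379 to 436 RPM of brain but under the 4155 RPM of heart. The counting interval of mir-322 in serum 1 (283–1548 RPM) covered that range of brain. mir-450a was at 662, 276 and 378 RPM from 5, 3 and 3 reads, and brain held 134 to 182 RPM. Its intervals in serum 2 (93.9–812 RPM) and serum 3 (129–1112 RPM) covered that range of brain. mir-542 was at 529, 92.1 and 252 RPM from 4, 1 and 2 reads, and overlapped the 131 to 188 RPM of brain. mir-503 had 0, 2 and 1 reads and overlapped brain as well. Levels of fewer than 3 reads in a library are below its floor, so for mir-503 and mir-542 no difference from brain could be read at this depth.

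Counted over precursors, 5 of the 10 members (both copies of mir-322 and of mir-351, and mir-450a) were higher in every serum library than in every hemisphere, and 17.6% of the 295 precursors were. None was lower in every serum library, as 58.3% of the 295 precursors were. The median precursor stood 1.89 lower on the log2 scale in serum than in brain, whereas mir-351 stood higher by 5.71, mir-322 by 1.77 and mir-450a by 1.52. The values for mir-322 and mir-450a rested on 36 and 11 serum reads. For mir-503 and mir-542, which overlapped brain, the log2 ratios of the means were 3.87 and 0.96 and rested on 3 and 7 serum reads. Members were chosen with these libraries known, and nothing is read from the counts. The direction for mir-322 depended on the list. On the mature list its 2 arms had 1 read in all of serum, on the 3p arm, and the level was 47.5 ± 82.2 RPM against 180 ± 29.5 RPM in brain. Only 1 of the 36 hairpin reads of mir-322 in serum lay on an annotated arm, which is 2.78% (0.492–14.2), against 37.2 ± 3.98% in brain.

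Within the cluster mir-351 made up 96.4 ± 0.652% of serum reads, and the ratio of mir-322 to mir-351 was 0.0228 ± 0.0114, below the 0.267 of testes, the lowest tissue on the precursor list. Red cell miRNAs, which enter serum by lysis, stood at 3092 ± 1074 RPM in serum (mir-451 and mir-144 summed) and at 12816 RPM in spleen, where mir-351 was at 473 RPM. The hepatocyte marker mir-122 was uneven in serum, at 21175, 142147 and 10340 RPM, while the SD of mir-351 over the serum libraries was 10338 RPM on a mean of 58677 RPM. The part of either in the serum levels was not tested.

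The seed shares show how much of the mature-list reads with each seed the members held. Among arms with the seed CCCUGAG, miR-351-5p held 13.98 ± 0.711% in brain, with 13.3 to 14.7% in the hemispheres, the remainder being miR-125a-5p and miR-125b-5p. In tissues it ranged from 9.42% (7.23–12.2) in small intestine to 71.5% (70.6–72.4) in muscle. It exceeded 50% in 6 tissues, namely muscle, skin (69.9%), testes (63.7%), fat (63.1%), lung (54.4%) and kidney (51.2%, 47.8–54.6), the interval of the last including 50%. In serum its share was 90.9 ± 3.88%. The 2 miR-125 arms summed to 8702 ± 3042 RPM in serum and 8047 ± 376 RPM in brain, which differ by less than the SD in serum, and ran from 259 to 5341 RPM in the pools.

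**Figure D4:**
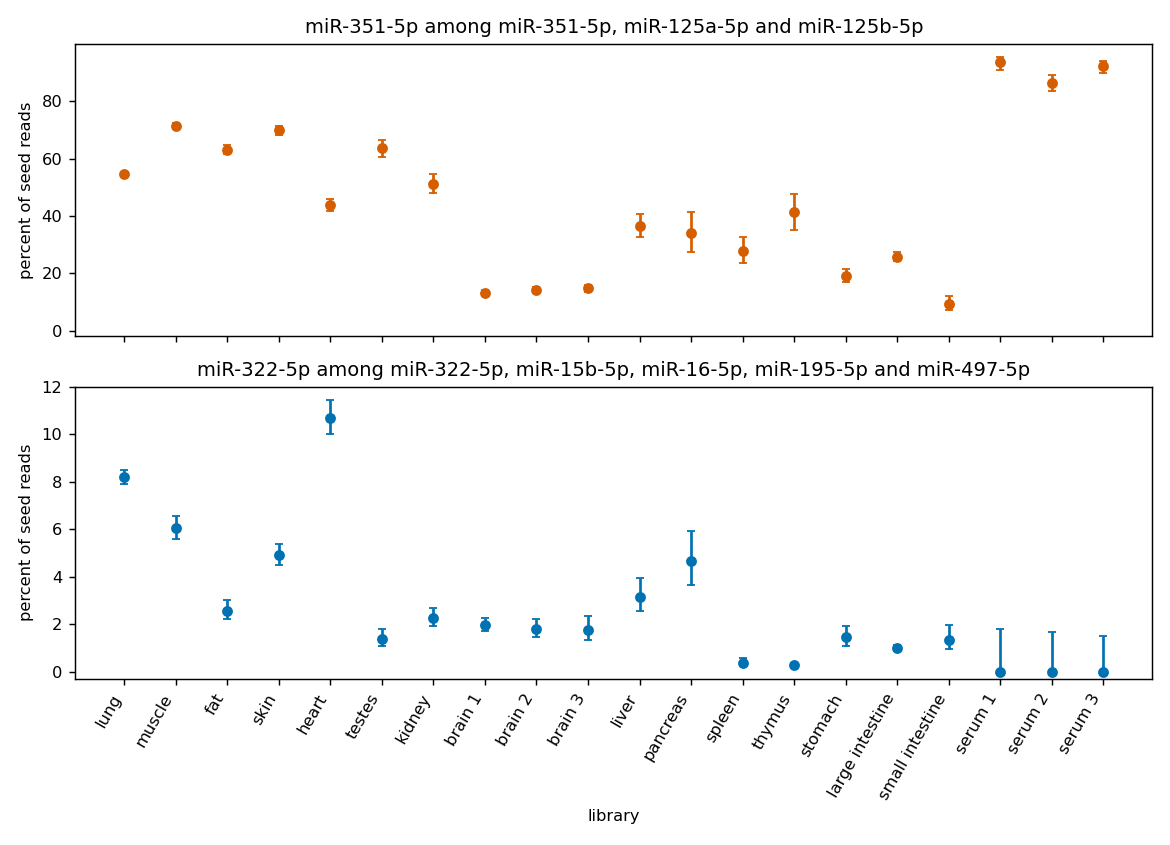
Percent of the mature reads with the seed of miR-125 that belong to miR-351-5p (top) and of those with the seed of miR-16 that belong to miR-322-5p (bottom) in each library, with 95% Wilson intervals. The top share lies at 13.3 to 14.7% in the hemispheres, reaches 71.5% in muscle and is over 86% in serum, whereas the bottom share peaks at 10.7% in heart and is 0 in serum.

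Among arms with the seed AGCAGCA, miR-322-5p was a minor member in every tissue on the mature list. Its share was highest in heart at 10.7% (10.01–11.4), followed by lung at 8.20%, muscle at 6.04% and skin at 4.92%. In brain it was 1.85 ± 0.115%, and the lowest shares were those of spleen (0.386%) and thymus (0.297%, 0.238–0.370), where mir-16 reached 40187 RPM on the precursor list. In serum 0 of 683 reads with this seed were miR-322-5p, which allows a share of up to 0.439% by the floor of 3 reads. Each share counts annotated arms only, on which 27.8% of the mir-322 hairpin reads lay in tissues (20.2% in fat to 45.2% in small intestine). In serum 1 of 36 did. Where the other reads lay could not be seen, so the shares and their order hold for the mature list only.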

How the data were processed

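Small RNA was measured in 20 libraries. Per the paper's methods, MiSeq sequencing of TruSeq small RNA libraries was followed by trimming at a Phred score of 20, Bowtie alignment to Rn5 and quantification in Partek Flow. What the authors deposited are estimated counts per miRNA, not normalized, with precursor, mature (both miRBase 21) and RefSeq lists stacked in 1 table. Some are fractional, and reads of near-identical copies can be shared, so copies were summed.

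Counts were divided by the total of their own list and multiplied by 1000000 (RPM), and log2 was taken after adding 1 RPM. The members and lists were chosen with earlier results of these data known, so no significance test was run. Named miRNAs were all members, the 5 precursors most like and the 3 least like the summed cluster by Pearson's r over 15 tissues among those with at least 10 reads in at least 3 libraries, every mature miRNA sharing a main arm's seed, at most 4 of a list of imprinted or growth-linked miRNAs, and the mir-15 and mir-125 lists. The marker miRNAs named came from fixed lists of tissue and cell type markers. mir-140 and mir-7a-2 lie outside this rule and were named after their values were seen. Sequences and gene order are from RefSeq tables for GRCr8, and no coordinates are given because the files use Rn5. Alternatives covered scaling (edgeR 4.0.16 TMM and DESeq2 1.42.0 size factors, with R 4.3.3), pseudocount, count filter, list, seed length, rank correlation and each library left out. The code that ranks precursors by likeness was tested on simulated data. Levels were computed in Python 3.11.15 with pandas 2.3.3 and NumPy 2.4.6, intervals with SciPy 1.17.1 and figures with Matplotlib 3.10.9.

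The labels number brain and serum 1 to 3, and the methods state that tissues came from the same animals, so equal numbers may mark an animal. Deviations of equally numbered libraries from their group means correlated at 0.10, −0.11 and −0.08 over 75 precursors. No pair of replicates held the same values. Other experiments of the study were not analysed here.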

Additional observations from a re-analysis of the deposited data

How the results depend on the processing

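The summed cluster's highest tissue stood 2.63 above its median tissue on the log2 scale. It stood 2.16 above with TMM scaling, 2.52 with DESeq2 size factors and 2.67 on the mature list. On the RefSeq list it stood 2.54 above, without the library labelled pancreas 2.42, and with a hemisphere left out 2.58 to 2.67. The highest tissue was lung with either scaling and on the RefSeq list, but muscle on the mature list. For mir-322 heart gave way to lung with TMM scaling. For mir-351 lung gave way to muscle on the mature and RefSeq lists. For mir-450a skin gave way to lung with DESeq2 size factors. The median correlation between hairpins, 0.865, was 0.829 with TMM, 0.819 with DESeq2 size factors, 0.869 on the mature list, 0.877 on the RefSeq list, 0.856 and 0.870 with pseudocounts of 0.1 and 10 RPM, 0.883 by rank, 0.871 without the library labelled pancreas, and 0.847 to 0.894 with any 1 tissue left out. Within the 6 and the 9 tissues on either side of the widest gap in the cluster's own summed level, it was 0.262 and 0.619. That alternative was chosen after seeing the data. The excess of mir-351 in serum over brain, 5.71 on the log2 scale, was 5.30 with TMM and 6.07 on the mature list, and 5.57 to 5.83 with 1 library left out. The serum difference of mir-322 reversed on the mature list, from 1.77 to −1.92, where serum held 1 read. The log2 ratio of mir-322 to mir-351 turned on the mature list, an alternative chosen after seeing the data, to −0.0828 in heart, −0.30 in thymus, −0.87 in small intestine, −1.25 in liver and −1.70 in kidney. In heart and thymus the counting interval on that list included equal levels of both. These causes were not tested.

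Taking brain and serum as pairs by replicate number (replicate block), the log2 differences were 5.70 for mir-351, 1.90 for mir-503, 1.57 for mir-322, 1.44 for mir-450a and 0.64 for mir-542. That for mir-503 was 3.87 without the block, since 1 serum library had no read of it. Of the 491 alternative values over 57 results, 288 stayed within the spread set for the result, 197 moved beyond it in the same direction, and 6 reversed. That spread came from replicates or counting error. For correlations it came from the hemispheres alone and does not cover the pools. For counts of names and of hairpins a fold limit was used instead. Between 3 and 4 of the 4 miRNA names most like the cluster were kept in the alternatives. Depth limited serum, where levels under 276 to 397 RPM on the precursor list, and 427 to 614 RPM on the mature list, fell below 3 reads.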

Other observations

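Imprinted miRNAs, many of them from the Dlk1-Dio3 region, are known for a link to growth and were compared with the cluster. Of a list of 24 imprinted or growth-linked miRNAs, 21 were listed, and 18 of their precursors had at least 10 reads in at least 3 libraries. Their correlation with the summed cluster over 15 tissues had a median of 0.26 and ran from 0.08 (mir-495) to 0.40 (mir-379), beside a median of 0.20 over all 285 other precursors. Summed, they were highest in brain (82939 RPM) and muscle (78242 RPM), and the most abundant, mir-127, was at 49957 RPM in brain and 47227 RPM in muscle. Muscle was high for both, whereas the cluster in brain was at 1834 ± 118 RPM.

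The miRNAs that share a seed with a member differed among themselves. Of the 4 precursors found from the mir-15 list, mir-195 (0.84) and mir-497 (0.81) followed the cluster across tissues, whereas mir-16 (0.25) peaked in thymus at 40187 RPM and mir-15b (−0.06) in spleen at 173 RPM. In the mir-125 family the correlations were 0.55 for mir-125a, 0.63 for mir-125b-1 and 0.74 for mir-125b-2, and all 3 were highest in brain. The sum of the epithelial mir-200 family gave −0.55, that of the mesenchymal mir-199a and mir-214 gave 0.53, and the endothelial mir-126a gave 0.50. Sums of the other fixed marker lists gave 0.40 for heart and skeletal muscle, 0.37 for testis, 0.20 for red cells and 0.20 for thymus. They gave 0.05 for neurons, 0.02 for leukocytes, −0.05 for liver, −0.15 for skin, −0.38 for smooth muscle, −0.42 for pancreas and −0.67 for intestine. The sum of the pancreas list was mostly mir-375, which was highest in large intestine at 18328 RPM, so its value does not describe pancreas. These are descriptions over 15 tissues with 1 value each.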
